A study of Mus with 30 samples.

Results

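Nppa and Nppb encode the precursors of atrial and brain natriuretic peptide, the hormones that the heart secretes under load. They are given here by 2 of the 36503 transcripts in the tables, ENSMUST00000103230 for Nppa and ENSMUST00000103231 for Nppb. Both were chosen by name as markers of cardiac load, not by a rule on their values, but earlier results of these data were known. The names of both identifiers could not be checked against the tables, which list identifiers without gene symbols. RNA-seq was performed on cardiac tissue from C57BL/6 mice, 5 in each of 6 groups, for a total of 30 libraries. The Control group was infused with saline for 28 days and treated with saline. The Ang II group was infused for 28 days with angiotensin II, a peptide hormone that constricts vessels and raises blood pressure, at 500 ng/kg/min. The other 4 groups received the same Ang II infusion together with a drug. Ethoxysanguinarine (Ang II + ETH), baicalin (Ang II + BAI) and gastrodin (Ang II + GAS) were each given at 5 mg/kg/day, and valsartan (Ang II + VAL), a blocker of the Ang II type 1 receptor, at 10.4 mg/kg/day. The study's methods, which describe the Control, Ang II and gastrodin mice, state that these were males, 8 weeks old when obtained, and that the RNA came from the left part of hearts cut lengthwise. How much atrial tissue that part held is not given, and each mouse contributed a single library.

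Both peptides are made as larger precursors by cardiomyocytes. Atrial cells store atrial natriuretic peptide in granules throughout life, whereas ventricular muscle makes little of it after birth and resumes its synthesis when the wall is stretched or hypertrophied. Brain natriuretic peptide is made largely on demand, and its mRNA is short-lived and responds quickly to stretch and to neurohormones such as Ang II. Once released, both act on the receptor guanylyl cyclase Npr1, which raises cyclic GMP, relaxes vessels and promotes excretion of sodium and water, and both are cleared by Npr3. The 2 genes are neighbours in the mouse genome. In RefSeq annotation of GRCm38.p6, matched by symbol, Nppa spans 1353 bases at chr4:148000722-148002074 and Nppb spans 1420 bases at chr4:147985786-147987205. They are separated by 13516 bases that hold 0 complete annotated genes, and Clcn6 lies on the other side of Nppa.

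Expression was taken as FPKM, fragments per length of transcript and per size of the library, which allows levels of 2 transcripts to be set side by side per unit of length. The sum of all FPKM values per library ranged from 562189 to 654188 with a median of 622953. Absolute depth is unknown, but low values recur at steps that give a relative depth against Control replicate 1. It was 0.853 to 1.02 in 28 libraries, 0.579 in Control replicate 2 and 0.653 in Ang II + BAI replicate 3. The correlation of log2 values between any 2 libraries was 0.783 to 0.844. These were whole-tissue samples, so fewer cells of a type and less RNA per cell cannot be told apart.

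Both transcripts were abundant in every library. Over the 30 mice, Nppa had a median of 130.6 FPKM (range 29.8 to 420) and Nppb a median of 170 FPKM (range 45.2 to 389). Within a library, Nppa ranked between 77 and 1040 by FPKM, with a median rank of 260, and Nppb between 84 and 716, with a median rank of 203. Nppb was the more abundant of the pair in most mice, since Nppa exceeded Nppb in 10 of 30.

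**Figure D1:**
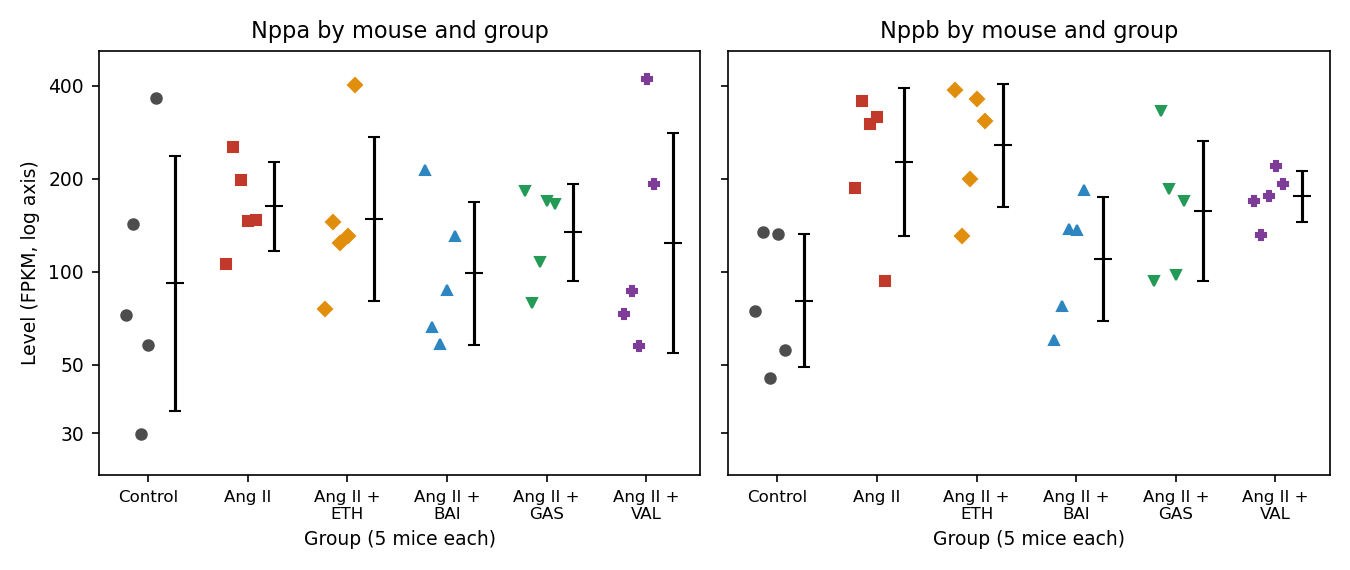
Level of Nppa (left) and Nppb (right) in FPKM on a log axis, with 1 point for each mouse in the 6 groups and, beside the points, the mean ± SD on the log2(FPKM + 1) scale (n = 5). For Nppb the 5 Control mice lie between 45.2 and 135 FPKM and 18 of 25 Ang II-infused mice lie above all of them, whereas for Nppa 1 Control mouse, at 365 FPKM, lies above all but 2 infused mice.

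Nppb was higher in the Ang II group than in Control, but the difference did not pass the threshold after adjustment over all transcripts. In Control the 5 mice had 45.2, 56, 74.9, 133 and 135 FPKM of Nppb, a mean of 88.7 ± 42.4 (SD, n = 5). In the Ang II group they had 93.7, 187, 301, 318 and 359 FPKM, a mean of 251.6 ± 109 (SD, n = 5). Of these, 4 of 5 mice lay above the highest Control mouse, and the groups overlapped through Ang II replicate 5 at 93.7 FPKM. The geometric mean of the Ang II group was 2.79-fold that of Control and its median was 4.01-fold. On the log2(FPKM + 1) scale the difference was 1.48 (SE 0.43, 95% interval 0.52 to 2.44), with an unadjusted p of 0.00627 and an adjusted p of 0.393 by limma. The exact two-sided permutation test gave p = 0.0317, and 0.238 after Benjamini-Hochberg adjustment over the 30 exact tests made, where the smallest p that 5 against 5 mice allow is 0.00794. By limma 0.0381% of 18354 transcripts passed an adjusted p of 0.05 in this comparison and 9.13% had an unadjusted p under 0.05. Nppb was among the latter, at rank 292 by p.

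Nppa had a coefficient of variation of 102% in Control and 33.4% in the Ang II group, and its mean difference was within that spread. The Control mice had 29.8, 57.8, 72.8, 143 and 365 FPKM of Nppa, a mean of 134 ± 136 (SD, n = 5), so that the highest was 12.2 times the lowest. The Ang II mice had 106, 147, 147, 198 and 253 FPKM, a mean of 170 ± 56.9 (SD, n = 5). All 5 Ang II mice were above the Control median and 0 of 5 were above the highest Control mouse. The log2 difference was 0.81 (SE 0.58, 95% interval -0.48 to 2.11, adjusted p = 0.722 by limma), and the exact permutation test gave p = 0.222. This value rested on single Control mice. Without Control replicate 5, the mouse at 365 FPKM, it was 1.31 (adjusted p = 0.532 by limma), and without Control replicate 3, the mouse at 29.8 FPKM, it was 0.41 (adjusted p = 0.809 by limma).

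**Figure D2:**
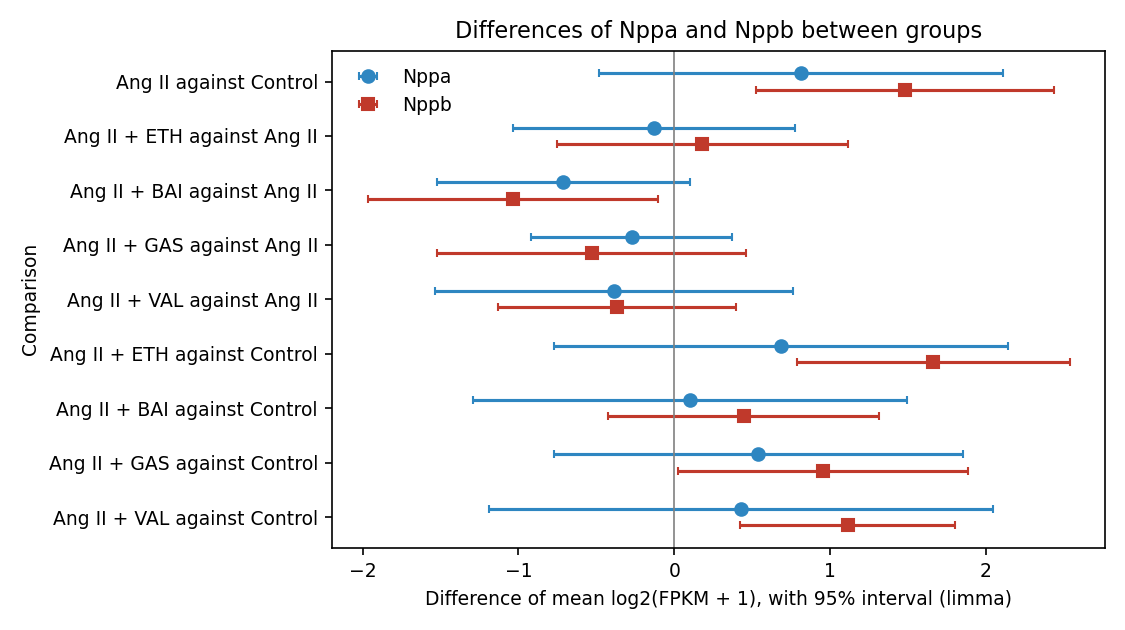
Difference of mean log2(FPKM + 1) for Nppa (circles) and Nppb (squares) in 9 comparisons of groups, named on the vertical axis, with the 95% interval by limma. The interval for Nppb lies above 0 for Ang II, Ang II + ETH, Ang II + GAS and Ang II + VAL against Control and below 0 for Ang II + BAI against Ang II, the intervals for Nppa all include 0, and 0 of these 18 differences passed an adjusted p of 0.05.

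The drug groups were next compared with the Ang II group, to ask how each treatment altered the levels during the infusion. These 4 comparisons share the same 5 Ang II mice. In the Ang II + BAI group Nppb was at 60.0, 77.7, 137, 137 and 184 FPKM, a mean of 119 ± 50.2 (SD, n = 5). All 5 mice were below the Ang II median of 301 FPKM, and 2 were below the lowest Ang II mouse. The geometric mean was 0.487 of that in the Ang II group, a log2 difference of -1.04 (SE 0.42, 95% interval -1.97 to -0.11), with an unadjusted p of 0.0325 and an adjusted p of 0.454 by limma. The exact permutation test gave p = 0.0556, and 0.333 after adjustment. In this comparison 0.0165% of transcripts passed an adjusted p of 0.05 by limma and 9.75% had an unadjusted p under 0.05.

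Nppb in the Ang II + VAL group was at 131, 169, 176, 193 and 221 FPKM, a mean of 178 ± 32.8 (SD, n = 5). These mice were the closest together of the 6 groups, with a coefficient of variation of 18.4% against 39.5 to 54.9% elsewhere, and all 5 were below the Ang II median. The log2 difference was -0.37 (SE 0.34, 95% interval -1.13 to 0.39, adjusted p = 0.904 by limma). It depended on single Ang II mice, as it was -0.69 without Ang II replicate 5, the mouse at 93.7 FPKM (95% interval -1.16 to -0.21, adjusted p = 0.694 by limma), and -0.20 without Ang II replicate 2, the mouse at 359 FPKM. In the Ang II + GAS group Nppb was at 93.1, 97.8, 170, 186 and 331 FPKM, a mean of 176 ± 96.5 (SD, n = 5). Here 4 of 5 mice were below the Ang II median and 1 was above it, for a log2 difference of -0.53 (SE 0.44, 95% interval -1.52 to 0.46, adjusted p = 0.861 by limma). This was -0.84 without Ang II replicate 5 and -0.34 without Ang II + GAS replicate 1. The exact permutation p-values were 0.373 for valsartan and 0.310 for gastrodin. In both comparisons 0.022% of transcripts passed an adjusted p of 0.05 by limma, and an unadjusted p under 0.05 was reached by 6.23% with valsartan and 6.21% with gastrodin.

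Nppb in the Ang II + ETH mice covered much the same range as in the Ang II mice. Their values were 131, 199, 308, 362 and 389 FPKM, a mean of 278 ± 109.7 (SD, n = 5). The log2 difference from the Ang II group was 0.18 (SE 0.42, 95% interval -0.75 to 1.12, adjusted p = 0.944 by limma), and the exact permutation test gave p = 0.690. An adjusted p of 0.05 was passed by 0.132% of transcripts in this comparison by limma, and 8.29% had an unadjusted p under 0.05. The interval spans both lower and higher levels, so it does not show that ethoxysanguinarine left Nppb as it was.

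Nppa was compared in the same way. With baicalin its values were 58.2, 66.4, 87.3, 131 and 214 FPKM, a mean of 111 ± 63.9 (SD, n = 5), and 3 of 5 mice were below the lowest Ang II mouse. That gave the lowest mean of any group and a log2 difference of -0.71 (SE 0.36, 95% interval -1.53 to 0.10, adjusted p = 0.562 by limma), with an exact permutation p of 0.111. With gastrodin the values were 79.4, 107, 166, 170 and 183 FPKM, a mean of 141 ± 45.0 (SD, n = 5), and the log2 difference was -0.27 (SE 0.29, 95% interval -0.92 to 0.37). It was -0.43 without Ang II replicate 1 and -0.09 without Ang II + GAS replicate 2.

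With valsartan Nppa spread widely, at 57.3, 72.9, 86.5, 193 and 420 FPKM, a mean of 166 ± 152 (SD, n = 5) and a log2 difference of -0.39 (SE 0.51, 95% interval -1.53 to 0.76). Without Ang II + VAL replicate 4, the mouse at 420 FPKM, the difference was -0.82 (adjusted p = 0.719 by limma), and without Ang II + VAL replicate 3, the mouse at 57.3 FPKM, it was -0.11. With ethoxysanguinarine it was at 76.1, 124, 131, 145 and 404 FPKM, a mean of 176 ± 130.2 (SD, n = 5) and a log2 difference of -0.13 (SE 0.41, 95% interval -1.04 to 0.78). In each of these groups 1 mouse, at 420 and 404 FPKM, stood above the other 4, and 3 of 5 and 4 of 5 mice respectively were below the Ang II median of 147 FPKM. The adjusted p-values by limma were 0.877 for gastrodin, 0.923 for valsartan and 0.962 for ethoxysanguinarine.

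Against Control, which these comparisons share, all 4 drug groups had higher geometric means of both transcripts. The largest difference was that of Nppb in the Ang II + ETH group, where 4 of 5 mice were above the highest Control mouse and the geometric mean was 3.17-fold higher. The log2 difference was 1.66 (SE 0.39, 95% interval 0.79 to 2.54), with an unadjusted p of 0.00176 and an adjusted p of 0.173 by limma. In the Ang II + VAL group 4 of 5 mice were above the highest Control mouse for Nppb, and the log2 difference was 1.11 (SE 0.31, 95% interval 0.42 to 1.80, adjusted p = 0.720 by limma). The exact permutation test gave p = 0.0238 for both, and 0.238 after adjustment.

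With gastrodin the log2 difference of Nppb from Control was 0.95 (SE 0.42, 95% interval 0.02 to 1.89, adjusted p = 0.646 by limma), with 3 of 5 mice above the highest Control mouse (exact permutation p = 0.0873). With baicalin it was 0.45 (SE 0.39, 95% interval -0.43 to 1.32, adjusted p = 0.795 by limma), also with 3 of 5 mice above it (exact permutation p = 0.254), and it was 0.24 without Control replicate 3 and 0.66 without Ang II + BAI replicate 1. For Nppa the log2 differences from Control were 0.68 with ethoxysanguinarine, 0.54 with gastrodin, 0.43 with valsartan and 0.10 with baicalin, with adjusted p-values of 0.834 to 0.977 by limma. Without Control replicate 5 these were 1.18, 1.03, 0.92 and 0.59, and without Control replicate 3 they were 0.28, 0.14, 0.03 and -0.30. An adjusted p of 0.05 by limma was passed by 0.225% of transcripts with ethoxysanguinarine, 0.0108% with valsartan, 0.0703% with gastrodin and 0.0108% with baicalin. An unadjusted p under 0.05 was reached by 8.88%, 5.62%, 7.68% and 8.41% respectively. Nppb was among these transcripts with ethoxysanguinarine, valsartan and gastrodin.

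Across all 25 Ang II-infused mice, 24 had more Nppb than the Control median and 18 had more than the highest Control mouse. For Nppa the same counts were 22 and 2. These counts pool the Ang II group with the drug groups against the same Control mice. The share of all transcripts that separate from Control in this way was not computed, and the pooled contrast was not tested. When the 6 groups were tested together by the F test of limma, Nppb had an unadjusted p of 0.00289 and an adjusted p of 0.199, and Nppa an unadjusted p of 0.656 and an adjusted p of 0.926. Of 24844 transcripts, 0.157% passed an adjusted p of 0.05 and 9.49% had an unadjusted p under 0.05.

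By mean log2 level, Nppb was ordered Ang II + ETH, Ang II, Ang II + VAL, Ang II + GAS, Ang II + BAI and Control from highest to lowest. The exact permutation test told no neighbours in this order apart, with p-values of 0.690, 0.373, 0.690, 0.286 and 0.254 down the order. Sorting the same means set which pairs are neighbours, so large p-values are in part built in. Nppa was ordered Ang II, Ang II + ETH, Ang II + GAS, Ang II + VAL, Ang II + BAI and Control, and its neighbours had exact permutation p-values of 0.794, 0.810, 0.849, 0.643 and 0.865. Both orders therefore placed Control and baicalin lowest and Ang II and ethoxysanguinarine highest. On the linear scale the order of Nppa was another one, since its mean of 134 FPKM in Control, which the mouse at 365 FPKM raised, was above the mean of 111 FPKM with baicalin.

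A relation between the 2 neighbouring genes from mouse to mouse was not detected. Across the 30 mice, log2 levels of Nppa and Nppb had a Pearson r of 0.213 (permutation p = 0.256) and a Spearman rho of 0.171 (permutation p = 0.364). Without the 2 mice farthest from the median of Nppa, r was 0.00866. Leaving out 1 mouse at a time moved r from 0.0505 without Control replicate 3 to 0.360 without Control replicate 5 (permutation p = 0.0545). After the mean of each group was subtracted, r was -0.0136 (permutation p = 0.945) and rho was -0.0323 (permutation p = 0.872). Among the 6 relations across mice that were computed, the adjusted p-values of these were 0.767 to 0.945. Single mice went either way. Control replicate 5 had the highest Nppa of its group and the second lowest Nppb (56 FPKM), Ang II + BAI replicate 1 had the highest Nppa and the lowest Nppb of its group, and Ang II + ETH replicate 1 had the lowest Nppa and the highest Nppb of its group. The Ang II + GAS group held both kinds of opposite extreme. Its replicate 1 had the highest Nppa (183 FPKM) and the lowest Nppb (93.1 FPKM). Its replicate 2 had the lowest Nppa (79.4 FPKM) and the highest Nppb (331 FPKM). In contrast, Ang II replicate 2 and Ang II + VAL replicate 4 were highest of their groups in both transcripts, and Control replicate 3 was lowest of its group in both.

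**Figure D3:**
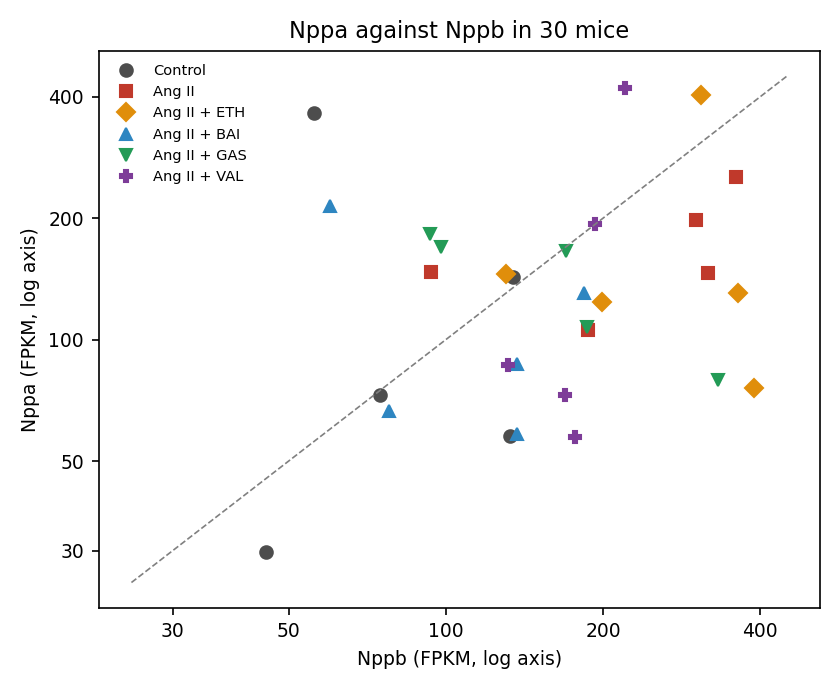
Nppa against Nppb in FPKM, both axes on a log scale, with 1 point for each of the 30 mice, marked by group. The dashed line marks equal levels, and 10 mice lie above it (Pearson r = 0.213 over all mice by log2 level, -0.0136 with group means subtracted).

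The ratio of Nppa to Nppb, in which any factor common to a library cancels, ranged from 0.196 to 6.51. Its group medians were 0.972 in Control, 0.659 in Ang II, 0.621 in Ang II + ETH, 0.709 in Ang II + BAI, 0.973 in Ang II + GAS and 0.658 in Ang II + VAL. The log2 ratio in the Ang II group was lower than in Control by a mean difference of -0.67 (exact permutation p = 0.476). The difference was -0.04 without Control replicate 5, and it was -1.01 without Control replicate 4. The drug groups differed from the Ang II group by -0.31 with ethoxysanguinarine, 0.32 with baicalin, 0.25 with gastrodin and -0.02 with valsartan, with exact permutation p-values of 0.611 to 0.944. After adjustment over these 5 tests the p-values were 0.863 to 0.944, so that a change in the balance between the 2 transcripts was not detected at 5 mice per group.

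A measure of the library moved with Nppa. The log2 level of Nppa was lower where the summed FPKM of the library was higher (Pearson r = -0.552, permutation p = 0.00152, adjusted p = 0.00912; Spearman rho = -0.444, permutation p = 0.0145, adjusted p = 0.0869). Without the 2 mice farthest from the median of Nppa, r was -0.481 (permutation p = 0.00998), and with group means subtracted it was -0.650. The 3 mice highest in Nppa, at 420 FPKM with valsartan, 404 FPKM with ethoxysanguinarine and 365 FPKM in Control, had sums of 586384, 562189 and 585451, and that of the ethoxysanguinarine mouse was the lowest of all 30. The 10 most abundant transcripts held 48.5 to 64.2% of the sum over the 30 libraries, and 52.8, 48.5 and 53.2% in these 3 mice respectively. How many other transcripts move with the sum was not computed, so the relation is not shown to be particular to Nppa. For Nppb and the sum, r was -0.0779 (permutation p = 0.680). Relative depth had an r of 0.0998 with Nppa (permutation p = 0.597) and of 0.0714 with Nppb (permutation p = 0.714). These 4 relations were computed after the levels had been seen. The part of library composition in the spread of Nppa was not tested further, and markers of atrial tissue or of other cells were not analysed here because the identifiers carry no gene names.

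The transcripts whose levels were most like each peptide were then listed. Among 5155 Ensembl transcripts with a mean of at least 5 FPKM, likeness was measured as Pearson r of log2 levels over the 30 mice with group means subtracted, and it is given as a description. The transcript most like Nppa was ENSMUST00000121805 (r = 0.889), which ranged from 3.65 to 12.8 FPKM with a median of 5.86. In it the same 3 mice stood high, and the highest value in each of the Control, Ang II + ETH and Ang II + VAL groups was 9.19, 12.8 and 9.31 FPKM against medians of 5.78, 6.05 and 5.04. The transcript was picked by its r over these same mice, so this is in part built in. ENSMUST00000114913 came next (r = 0.801, range 7.91 to 14.3 FPKM). An r above 0.6 was reached by 126 of these transcripts.

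For Nppb the most alike was ENSMUST00000024698 (r = 0.808, and 0.904 without subtraction of the group means), which ranged from 24.3 to 98.6 FPKM. Its group means ran, by group, at 31.7 ± 7.30 in Control, 71.2 ± 25.5 in Ang II, 75.3 ± 13.4 in Ang II + ETH, 41.5 ± 6.14 in Ang II + BAI, 50.5 ± 12.5 in Ang II + GAS and 57.5 ± 15.02 FPKM in Ang II + VAL (SD, n = 5 each). The next was ENSMUST00000037991 (r = 0.696, range 8.86 to 20.8 FPKM), and 16 transcripts had an r above 0.6 with Nppb. The names of these 4 transcripts are not given in the tables used here.

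**Figure D4:**
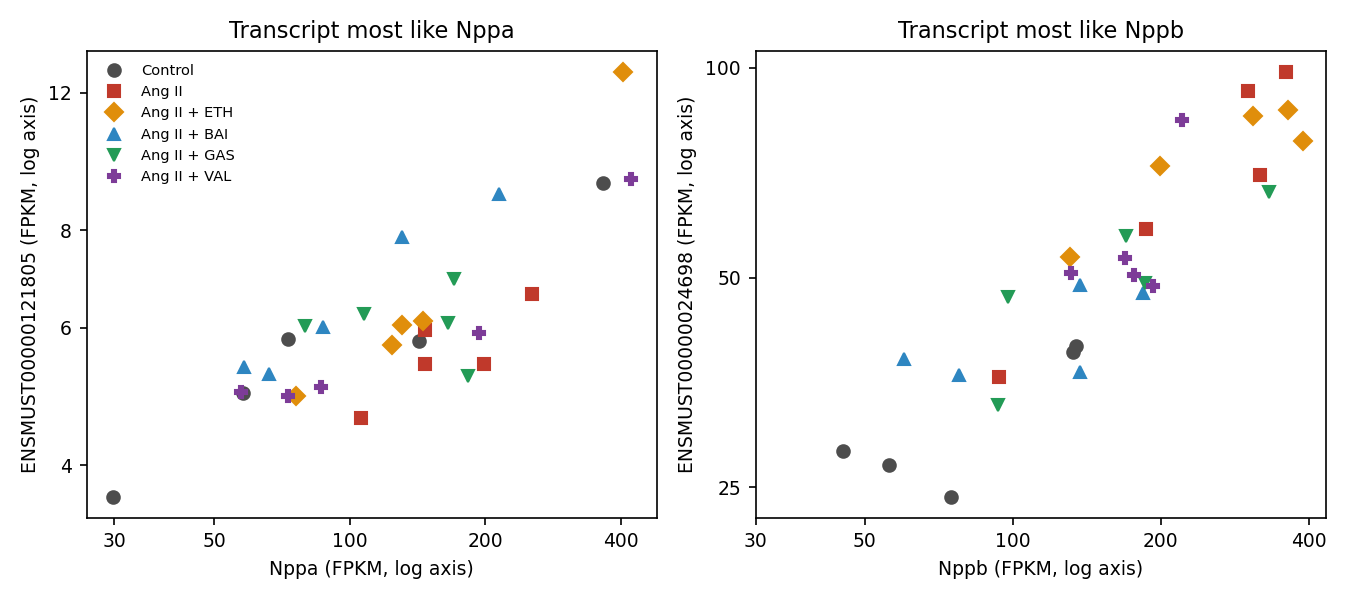
Level in FPKM, on log axes, of the transcript most like Nppa against Nppa (left) and of the transcript most like Nppb against Nppb (right), with 1 point for each of 30 mice, marked by group. Each transcript was picked by its r with that peptide over these same mice. On the left the 3 mice highest in Nppa are also the 3 highest in ENSMUST00000121805, and on the right the 3 lowest values of ENSMUST00000024698, from 24.3 to 28.2 FPKM, belong to Control mice, while the other 2 Control mice, at 39.1 and 39.9 FPKM, lie among the infused mice.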

How the data were processed

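The authors deposited 1 table per mouse with a transcript identifier and a value, read here as FPKM. The sources used here do not give the unit, aligner, quantifier or annotation. Build mm10 and limma appear in the processing notes of the submitters, and the study's methods name DESeq, which needs counts and was not run. The study's methods give 6 mice per group and the labels 5. Groups came from the labels, which pair no mice. Each comparison used the transcripts present in all its libraries and at 1 FPKM or more in at least 5. Values were transformed as log2(FPKM + 1), which understates changes of low transcripts, and more so the lower the level. Comparisons used limma 3.58.1 in R 4.3.3 (mean-variance trend, two-sided, only the mice of the groups compared, Benjamini-Hochberg over all transcripts tested, threshold 0.05). Exact permutation tests used the 252 divisions of 10 mice, and correlations 100000 permutations (scipy 1.17.1, Python 3.11.15). The 6 pairs of drug groups and the relations with library measures were added after the data were seen. The limma script was tested on simulated data. Relative depth was the most frequent ratio of the values of Control replicate 1 to those of the library. It was taken over transcripts between 0.02 and 0.3 FPKM in both. The transcripts at that ratio were few, from 25 in Ang II + BAI replicate 3 to 72 in Ang II replicate 1.

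The members and lists were chosen with earlier results of these data known. The transcripts named were the 2 members and, for each, the 2 with the highest r. As 0 of 36503 identifiers were found in the reference table, the lists of pathway genes, hypertrophy genes and cell type markers were not analysed here. No sequence is shown, since none was given for these transcripts.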

Additional observations from a re-analysis of the deposited data

Results flagged for a closer look

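Nppa, Nppb, their log2 ratio, the summed FPKM and the relative depth were searched in each group for a mouse far from the other 4, which made 30 checks. Levels were taken in FPKM for this search, not on the log2 scale of the tests, on which the search was not made. If values are normally distributed, chance alone flags about 1 in 20 such checks, and 1 of the 30 stood out. Nppa in Ang II + ETH replicate 5 was at 404 FPKM, the nearest other mouse of that group at 145 FPKM and the lowest at 76.1 FPKM, so that the gap took 0.789 of the range (critical value 0.71). The same library had the lowest summed FPKM of all 30, at 562189, and its Nppb, at 308 FPKM, was the median of its group. Without this mouse, the log2 difference of Nppa from the Ang II group was -0.49 and from Control 0.32, with adjusted p-values by limma of 0.7101 and 0.923.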

How the results depend on the processing

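With 5 mice per group, 0 comparisons of Nppa or Nppb passed an adjusted p of 0.05 by limma under any setting tried, and the lowest reached was 0.0691, for Nppb in Ang II + ETH against Control. With the settings of the report, an unadjusted p under 0.05 was reached by Nppb in 5 of 9 comparisons by limma and in 3 of 9 by the exact permutation test, and by Nppa in 0 of 9 by either. Over all transcripts tested, 5.62 to 9.75% reached it by limma in these comparisons. Each comparison shares its Control or Ang II mice with others, so the 9 are not independent. The settings were a pseudocount of 0.1, no filter, a mean of at least 5 FPKM, limma without the trend, quantile normalization, scaling each library to 1000000 FPKM or to the transcripts outside the 100 most abundant, and all 6 groups in one fit. Under these the log2 difference of Nppb between Ang II and Control was 1.46 to 1.49, and the adjusted p 0.139 to 0.511. With each mouse left out in turn it was 1.277 to 1.799. Counting each value once per setting or mouse left out, the direction and the side of the threshold held 498 times and the direction turned 25 times. Settings that change only the filter, drop the trend or fit all 6 groups together leave the log2 difference as it is. The F test has no direction. Entries of these kinds could not turn, so the count does not measure how firm the directions are. The correlation of Nppa and Nppb with group means subtracted turned to 0.0661 after scaling to 1000000 and to 0.024 without the 2 mice farthest from the median of Nppa, and ranged from -0.143 to 0.0860 with each mouse left out. The direction also turned with single mice left out for the log2 difference of Nppa between Ang II + ETH and Ang II (-0.490 to 0.109), Nppb in that pair (-0.14 to 0.42), Nppa in Ang II + BAI against Control (-0.30 to 0.59) and Nppa in Ang II + VAL against Control (-0.0100 to 0.921), and for the log2 ratio of Nppa to Nppb against the Ang II group with ethoxysanguinarine (-0.611 to 0.0758), baicalin (-0.174 to 0.605), gastrodin (-0.0444 to 0.714) and valsartan (-0.380 to 0.259). The cause was not tested. No paired analysis was possible because no label pairs mice across groups.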
